A study of Homo sapiens with 3 samples.

Results

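The plasma membrane amino acid transporters described here were 10 genes used by growing cells, taken from a fixed list of names and found by joining the transcript identifiers to GENCODE gene symbols. All 10 were found among the 61193 genes of the annotation that the files cover. RNA-seq was carried out on HEK293T, an established human embryonic kidney cell line with the large T antigen of SV40. All 3 biological replicates belonged to 1 condition, untreated cells in DMEM with 10% FBS and Penicillin-Streptomycin, collected 24 h after seeding, so there was no control or treated group and no test between conditions. Libraries were made with a QuantSeq 3′ kit, in which each read starts near the poly(A) tail. The labels call the material genomic DNA, whereas the extraction steps and the study describe total RNA, and the values were treated as RNA.

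Amino acids cross the plasma membrane through carriers that differ in substrate, in dependence on sodium, and in whether they import 1 amino acid or exchange it for another. SLC3A2 is the glycoprotein heavy chain (4F2hc) to which light chains such as SLC7A5 (LAT1), SLC7A6 and SLC7A11 (xCT) are joined by a disulfide bond, and the light chain carries the substrate. When amino acids run short, the kinase EIF2AK4 (GCN2) phosphorylates the initiation factor eIF2, translation of the transcription factor ATF4 rises, and ATF4 is known to activate several transporter genes at elements with the letters TGATGNAA.

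Promoter windows from RefSeq (GRCh38.p14, 250 bases before each start and 50 after it) were held for 9 of the 10 genes, 17 windows in all, and SLC7A11 had no entry. On either strand, TGATGNAA was present in 5 of the 17 windows, for 5 of the 9 genes, SLC3A2, SLC7A1, SLC1A5, SLC1A4 and SLC38A1. Over all windows of the table, 3.62% of 35116 windows and 4.46% of 27305 genes held these letters. The 30 bases around each match are printed because ATF4 is known to act through such elements and its axis is described further on. They read 5′ to 3′ on the strand of the gene, with the 8 matching letters in capitals.
SLC3A2, chr11:62881719-62881748, plus strand: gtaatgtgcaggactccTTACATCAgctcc
SLC7A1, chr13:29595663-29595692, minus strand: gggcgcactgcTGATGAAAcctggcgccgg
SLC1A5, chr19:46784893-46784922, minus strand: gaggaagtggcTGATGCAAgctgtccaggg
SLC1A4, chr2:64989381-64989410, plus strand: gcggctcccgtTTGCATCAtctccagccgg
SLC38A1, chr12:46266502-46266531, minus strand: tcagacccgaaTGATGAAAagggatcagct
Capitals that begin with TT are the same element read from the other strand. Counting the start of the matching window as 0, the match lay at positions -7 to 0 in SLC1A4, -4 to 3 in SLC38A1, 7 to 14 in SLC7A1, 37 to 44 in SLC3A2 and -97 to -90 in SLC1A5. That start is the one of the canonical transcript in SLC1A4 and SLC7A1, and lies 803 bases downstream of it in SLC3A2, 2527 in SLC38A1 and 3780 in SLC1A5. SLC1A5 and SLC1A4 held the composite form TTGCATCA, which is TGATGCAA on the other strand and was present in 0.866% of windows. The genes with a match differed widely in level. SLC7A1 and SLC38A1 were abundant, while SLC3A2, SLC1A4 and SLC1A5 had at most 23 counts in a library.

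The study mapped i-motifs and G-quadruplexes, structures that C-rich and G-rich strands can fold into, so runs of at least 3 C or G repeated 4 times with loops of 0 to 7 bases were also searched on the strand of the gene. Runs of C were found for 4 of the 9 genes, beside 16.6% of all genes with a window, and runs of G for 5 of the 9 genes, beside 17.6%. By window these were 4 and 5 of 17, beside 14.2% and 15.5% of all windows. These examples are the C run of SLC3A2 and G runs of the 2 most abundant transporters that held one, with the tracts in capitals.
SLC3A2, chr11:62881571-62881593, plus strand: CCCCCttCCCCCaCCCCCtCCCC
SLC38A2, chr12:46372950-46372974, minus strand: GGGGGcgcctgcGGGcGGGGctGGG
SLC7A1, chr13:29595717-29595739, minus strand: GGGGGcGGGcgtGGGGcgcGGGG
Every one of the 9 genes had the GC box letters GGGCGG in a window, beside 48.3% of all genes. By window these were 13 of 17, beside 45.0% of all windows. The windows of the transporters held 43.3% to 82.0% G and C, and the median window held 58.7%. The E-box letters CACGTG, to which MYC binds, were present for SLC7A5 and SLC1A5 and for 8.77% of all genes. These were 2 of the 17 windows, beside 7.26% of all windows. CCAAT was found for 5 of the 9 genes and 39.7% of all genes, in 6 of the 17 windows and 34.6% of all windows. TGACNNNGC, the letters of the antioxidant response element, was found for 5 of the 9 and 16.1% of all genes. It lay in 5 of the 17 windows and 13.3% of all windows. A match describes letters only, and binding was not measured here.

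The libraries held 7019253, 6262175 and 8521624 counts in the order of the replicates. A gene at 0 may still have had up to 3 counts, which is 0.352 to 0.479 CPM (counts per 1000000 counts) across these depths, a limit that covers counting error only. Transcripts of the mitochondrial genome took 9.59% of the counts in replicate 1, 5.70% in replicate 2 and 25.8% in replicate 3. HEK293 markers were present in part. INA had 38.8 TPM (transcripts per 1000000, that is, counts divided by transcript length and scaled to a common sum), PAX2 8.96, EYA1 2.00 and LHX1 1.66 TPM, NEFM had 0 counts in every replicate and VIM 0 to 6. Of 6 markers of blood, liver, endothelium, muscle and pancreas, PTPRC, HBB, ALB, ACTA1 and INS had 0 counts and PECAM1 at most 2. Of all 12 markers 7 have a 3′ end shared throughout by several listed transcripts. These are HBB, ACTA1, INS, NEFM and VIM, and also PAX2 and EYA1, the 2 of the 7 with at least 1 TPM. Of all protein-coding genes with such an end, 26.0% had a mean of at least 1 TPM, as described further on.

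A gene with a mean of at least 1 TPM was taken as expressed, and 7 of the 10 transporters passed, beside 38.2% of protein-coding genes. Of the 10, SLC38A2, SLC7A1, SLC7A11 and SLC38A1 were in the high category, at or above the third quartile of the 13296 expressed genes, 24.1 TPM, beside 12.5% of protein-coding genes. They stayed there in each replicate. SLC7A6, SLC1A4 and SLC3A2 were in the low category, at or below 2.40 TPM, and SLC43A2, SLC7A5 and SLC1A5 were not expressed. Without division by length SLC43A2, at 1.69 CPM, lay above SLC1A4 (1.49), SLC3A2 (1.30) and SLC7A6 (0.814). By mean TPM none of the 10 fell in the medium range between. Taken by single replicate, with the quartiles of that replicate, the low genes did not keep their category. SLC3A2 was not expressed in replicate 1 and medium in replicate 3, SLC7A6 was medium in replicate 2 and SLC1A4 in replicate 3. The high genes held 98.7% of the TPM of all 10, and the other 6 together had 36, 30 and 52 counts in replicates 1, 2 and 3, of 10759, 10051 and 20639. In bulk RNA, fewer cells that use a gene and less RNA per cell cannot be told apart.

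**Figure D1:**
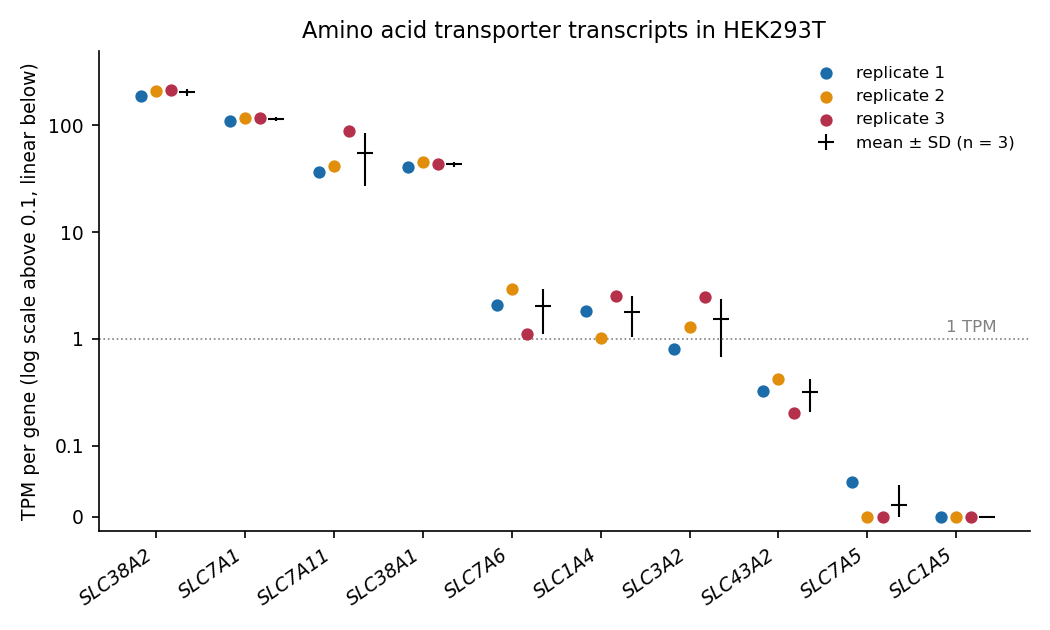
TPM per gene (vertical axis, logarithmic above 0.1 and linear below) of the 10 transporters in each of the 3 replicates (coloured points), with the mean and SD (n = 3) in black. SLC38A2, SLC7A1, SLC7A11 and SLC38A1 lie between 36.8 and 216 TPM, and the other 6 genes at or below 2.92 TPM.

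The sodium-coupled neutral amino acid transporters were both abundant. SLC38A2 (SNAT2, ENSG00000134294, chromosome 12, 46358188 to 46372773, minus strand), which imports small neutral amino acids such as alanine and glutamine, had 4064, 3810 and 6911 counts. These gave 187, 208 and 216 TPM, a mean of 203.7 ± 15.2 TPM (SD, n = 3), higher than 95.7% of expressed genes. It was the highest of the 10 in every replicate, and its lowest replicate was above the highest replicate of the next gene. SLC38A1 (SNAT1, ENSG00000111371, chromosome 12, 46183063 to 46270017, minus strand), its neighbour on the chromosome with overlapping substrates, had 1432, 1409 and 2228 counts. Its TPM was 40.9, 45.4 and 43.3, with a mean of 43.2 ± 2.26 (SD, n = 3). In TPM as deposited the replicates of SLC38A1 lay close together and well below those of SLC38A2. With the mitochondrial genes left out, as described further on, SLC38A1 had 52.9, 53.6 and 77.7 TPM, so replicate 3 lay apart.

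SLC7A1 (CAT1, ENSG00000139514, chromosome 13, 29509414 to 29595688, minus strand), a uniporter of arginine, lysine and ornithine, had 3615, 3278 and 5755 counts. The level was 109, 116 and 118 TPM, a mean of 115 ± 4.59 (SD, n = 3), above 92.4% of expressed genes. In TPM these values overlapped with those of no other transporter on the list, whereas in CPM, without division by length, those of SLC7A1 (515 to 675) overlapped with SLC38A2 (579 to 811) and SLC7A11 (230 to 668). Its nearest relatives, the cationic carriers SLC7A2 and SLC7A3 and the related SLC7A4, had 0 counts in each library (chosen for mention after their values were seen), and at most 3.0% of their final 300 exonic bases belong to a single listed transcript.

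SLC7A11 (ENSG00000151012, chromosome 4, 138164097 to 138242349, minus strand), the light chain that takes up cystine in exchange for glutamate and so feeds glutathione synthesis, had 1612, 1524 and 5693 counts. Its TPM was 36.8, 41.2 and 88.5, with a mean of 55.5 ± 28.7 (SD, n = 3). Replicates 1 and 2 were close to each other and replicate 3 lay far above both. Without replicate 3 the mean was 39.0 TPM, below the 43.1 TPM of SLC38A1 in the same replicates. SLC7A11 exceeded SLC38A1 by TPM in 1 of 3 replicates, and in CPM in 3 of 3, so their order depended on the division by length.

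The other partners of the SLC3A2 complexes gave few reads. SLC3A2 itself (ENSG00000168003, chromosome 11, 62856004 to 62888880, plus strand) had 8, 7 and 14 counts, 0.811, 1.28 and 2.46 TPM, and a mean of 1.52 ± 0.850 TPM (SD, n = 3). It passed 1 TPM in replicates 2 and 3, and without replicate 3 its mean was 1.05 TPM. SLC7A6 (y+LAT2, ENSG00000103064, chromosome 16, 68264516 to 68301823, plus strand), a light chain that exchanges cationic for neutral amino acids, had 6, 7 and 4 counts and 2.07, 2.92 and 1.10 TPM, with a mean of 2.03 ± 0.911 TPM (SD, n = 3). SLC7A5 (ENSG00000103257, chromosome 16, 87830023 to 87869507, minus strand), the light chain that carries leucine and other large neutral amino acids, had 1 count in replicate 1 and 0 in replicates 2 and 3. On its canonical transcript 3 counts equal 0.0987 to 0.172 TPM, and all libraries were at or under that limit, which covers counting error only.

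Within a replicate, the TPM of SLC3A2 divided by the summed TPM of SLC7A5, SLC7A6 and SLC7A11 was 0.0208, 0.0291 and 0.0275, a mean of 0.0258 ± 0.00438 (SD, n = 3). SLC7A11 supplied most of the denominator. All of the final 300 exonic bases of its canonical transcript belong to that listed transcript alone, and 0 of those of SLC3A2 do. The ratio therefore compares counts on listed transcripts, and what part the shared end of SLC3A2 had in it was not tested. Counted without division by length the ratio was 0.00399. No ratio of SLC7A5 to SLC3A2 is given, because SLC7A5 was at or under 3 counts in every library.

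The neutral amino acid exchangers of the SLC1 family were low or not detected. SLC1A4 (ASCT1, ENSG00000115902, chromosome 2, 64988477 to 65023865, plus strand), which exchanges alanine, serine and cysteine, had 9, 3 and 23 counts, 1.84, 1.02 and 2.50 TPM, and a mean of 1.79 ± 0.740 TPM (SD, n = 3). SLC1A5 (ASCT2, ENSG00000105281, chromosome 19, 46774883 to 46788594, minus strand), known as a main glutamine exchanger of dividing cells, had 0 counts in all 3 libraries on each of its 6 listed transcripts. For its canonical transcript a count of 0 allows up to 0.229, 0.272 and 0.156 TPM, a limit that covers counting error only. Of the final 300 exonic bases of that transcript 2 belong to no other listed transcript. SLC43A2 (LAT4, ENSG00000167703, chromosome 17, 1569268 to 1628886, minus strand), a uniporter of branched-chain and aromatic amino acids, had 12, 13 and 11 counts, 0.325, 0.417 and 0.203 TPM, and a mean of 0.315 ± 0.107 TPM (SD, n = 3).

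By mean TPM the genes ran SLC38A2, SLC7A1, SLC7A11, SLC38A1, SLC7A6, SLC1A4, SLC3A2, SLC43A2, SLC7A5 and SLC1A5. Of the 9 pairs of neighbours in this order, 5 had ranges over replicates that did not overlap. The pairs that did overlap were SLC7A11 with SLC38A1, SLC7A6 with SLC1A4, SLC1A4 with SLC3A2, and SLC7A5 with SLC1A5. With mitochondrial genes left out 4 pairs did not overlap, and in CPM 2. An exact paired permutation test on 3 replicates cannot pass 0.05, so none was run. Counting error alone, as 1 over the square root of the count averaged over replicates, gives a coefficient of variation of 42.9% for SLC7A6, 37.3% for SLC1A4 and 33.3% for SLC3A2. The observed values were 44.8%, 41.4% and 56.0% in TPM as deposited, and 27.3%, 61.6% and 78.3% with the mitochondrial genes left out. On log2(TPM + 1) the median SD between replicates over the 10 genes, which include SLC1A5 and SLC7A5 at or near 0, was 0.11. With the mitochondrial genes left out it was 0.33.

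Reads from a 3′ library fall at the end of a transcript, and a read that lies on bases shared by several listed transcripts may not be given to any 1 of them. The settings used for such reads are not given in the sources used here. For the canonical transcript, the final 300 exonic bases were therefore divided into private bases, held by no other listed transcript on the strand, and shared ones. All 300 were private in SLC7A11, SLC7A1, SLC38A1 and SLC43A2, and 293 in SLC38A2. In SLC1A5 and SLC1A4 only 2 were private, and in SLC3A2, SLC7A5 and SLC7A6 none. The transporters in the high category were thus those with a private 3′ end, with SLC43A2 as the exception, which had a fully private end and 11 to 13 counts.

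Over all genes the division was compared with whether a gene was expressed, a lower bar than the high category. Of protein-coding genes with a fully private end, 53.4% of 7600 were expressed, with a median of 23.8 counts per library. Of those with a fully shared end, 26.0% of 7840 were expressed, with a median of 0.333 counts. By that measure the transporters differed little, with 3 of the 4 with a fully private end expressed and 2 of the 3 with a fully shared end. A low value of SLC3A2, SLC7A5, SLC7A6, SLC1A4 or SLC1A5 is therefore a count on listed transcripts, and what part the shared ends had in it was not tested.

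**Figure D2:**
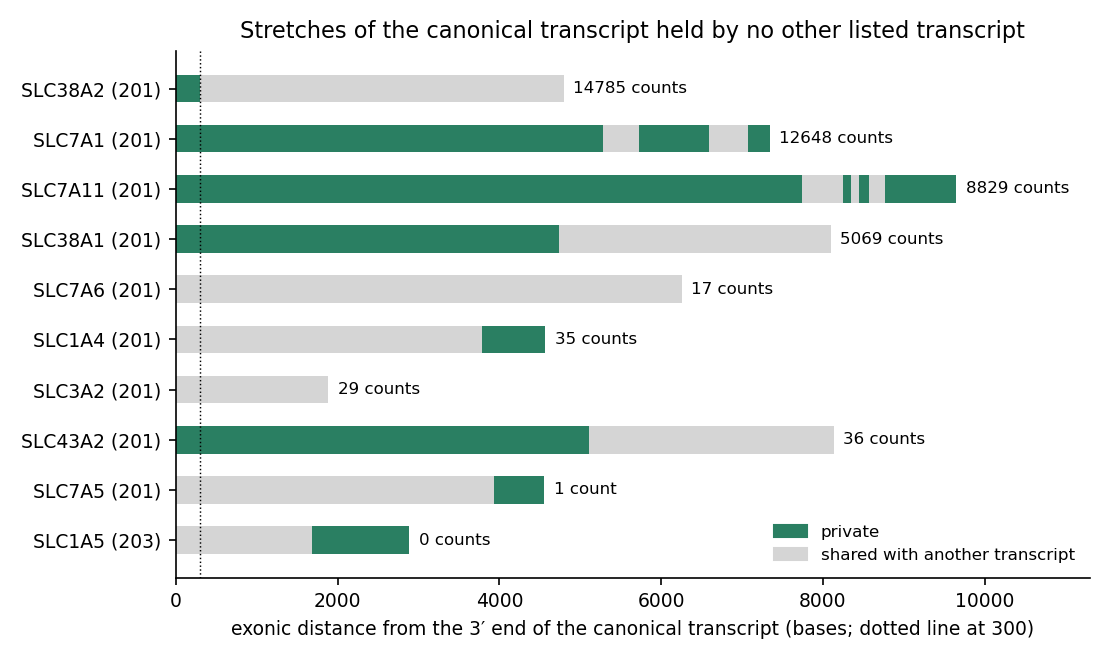
Canonical transcripts of the 10 transporters drawn to scale from the 3′ end (horizontal axis, exonic bases), with private stretches in green, shared ones in grey, a dotted line at 300 bases and the summed counts of the gene over 3 replicates at the right. The genes with 5069 or more counts have green at the 3′ end, and SLC43A2 also does with 36 counts.

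The private stretch of SLC38A2 was short. Only 293 of the 4795 bases of SLC38A2-201 belonged to no other transcript, all of them at the very 3′ end, and this transcript held 99.98% of the counts of the gene. In SLC7A5-201 the nearest private base lay 3933 bases from the 3′ end. SLC3A2-201 and SLC7A6-201, the canonical transcripts of their genes, had no private base and 0 counts.

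**Figure D3:**
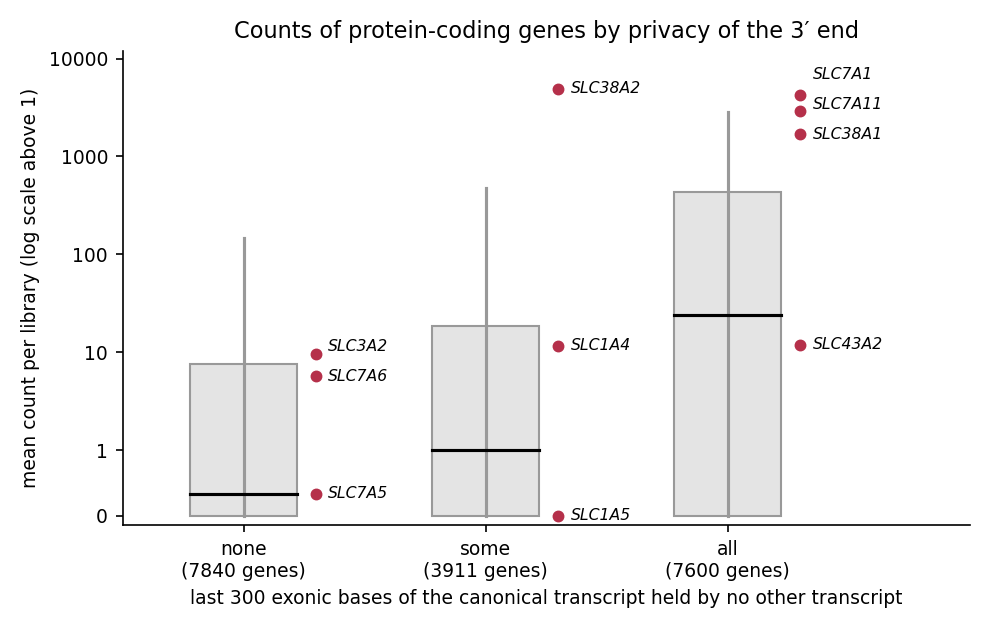
Mean count per library (vertical axis, logarithmic above 1) of protein-coding genes whose 3′ end has no, some or only private bases, as median (line), quartiles (box) and 5th to 95th percentile (whisker), with the transporters as red points. SLC38A2, SLC7A1, SLC7A11 and SLC38A1 lie above the box of their class, SLC3A2 lies slightly above its own, which ends at 7.67 counts, and SLC7A5 and SLC1A5 lie at or near 0. SLC38A2, with 293 of 300 bases private, is drawn in the class with some private bases.

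The counts of SLC3A2, SLC7A6 and SLC1A4 lay mostly on transcripts that are not canonical. SLC3A2 had 23 listed transcripts, and SLC3A2-220, which retains an intron, held 8, 5 and 5 of its counts. The coding transcript SLC3A2-221 had 4 counts in replicate 3 alone and, with a deposited length of 589 bases, weighs heavily in TPM. Its length in GENCODE v44 is 2041 bases, and for 11 of the 96 transcripts of the 10 genes the deposited and annotated lengths differ, so the annotation behind the counts was not this release throughout, and the private bases given here are those of the release. SLC7A6-213, a short transcript annotated as a target of nonsense-mediated decay, held 5, 6 and 4 of the counts of SLC7A6. SLC1A4-204, with no defined coding sequence, held 6, 3 and 11 of those of SLC1A4, and the canonical SLC1A4-201 had 0, 0 and 5. In contrast, SLC7A11-201 held all of the counts of its gene, SLC7A1-201 held 99.96% and SLC38A1-201 held 99.8%, each of them the canonical coding transcript. Over the 96 listed transcripts of the 10 genes, 20 had any count. Of the 39 without a private base, 1 had counts, 2 in all.

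Genes on the opposite strand overlapped some of the transporters. SLC7A6OS shares 3372 exonic bases with SLC7A6 and had 49, 40 and 51 counts, several times those of SLC7A6. SLC7A11-AS1 shares 865 exonic bases with SLC7A11 and had 0, 0 and 9 counts. Whether counting used the strand is not given in the sources used here, so reads in these overlaps cannot be assigned with certainty. The 3′ end of SLC1A5 holds words of 31 bases that recur in 924 other genes, at most 3.70% of its words in any of them (PCBP1-AS1, with 49, 21 and 44 counts), and the ends of the other 9 transporters share no such word with another gene.

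Among 29 further amino acid transporters, 7 were expressed (24.1%), beside 38.2% of protein-coding genes. In every library 12 of the 29 had 0 counts, beside 7271 of the 19926 protein-coding genes. SLC6A15, a sodium-coupled carrier of branched-chain amino acids and proline, led with 63.7, 66.6 and 37.0 TPM. SLC16A10, an aromatic amino acid uniporter, followed with 44.5, 48.9 and 31.9 TPM. SLC6A9, the glycine transporter GLYT1, had 9.58, 9.33 and 20.2 TPM, and SLC1A1, a glutamate transporter, had 9.30, 10.4 and 7.70 TPM. Only SLC6A15 and SLC16A10 of the 29 reached the high category, beside 12.5% of protein-coding genes. The other SLC3A2 light chains SLC7A8 and SLC7A7 had at most 1 and 3 counts in a library. SLC43A1 (LAT3), a relative of SLC43A2, had at most 1, and SLC38A5 and SLC1A7 had 0. Of these, SLC7A8, SLC38A5 and SLC1A7 have a 3′ end shared throughout. That of SLC43A1 has 0.667% private bases, and SLC7A7 has no such value. Of the 11 further transporters with a fully private 3′ end 3 were expressed, and of the 9 with a fully shared end 2 were.

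The ATF4 axis was described by 28 genes, of which 16 were expressed (57.1%), beside 38.2% of protein-coding genes. Of the 28, 11 were in the high category, beside 12.5% of protein-coding genes. PSAT1, an enzyme of serine synthesis, had 1240, 1464 and 2204 TPM. SESN2, a leucine sensor, had 285, 394 and 325 TPM. STC2, a secreted glycoprotein, had 171, 213 and 262 TPM, and CHAC1, which breaks down glutathione, had 92.5, 193 and 299 TPM. ATF4 itself had 0, 4 and 5 counts, and ALDH18A1 and CBS had 0. The 3′ end of CBS is shared throughout, that of ALDH18A1 has 1.33% private bases, and ATF4 has no such value. Of the 12 genes on this list with a fully private 3′ end 11 were expressed, and of the 12 with a fully shared end 3 were.

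Replicate 3 held the largest share of mitochondrial reads, which lowers the TPM of all other genes in it. Over 5656 genes of the nuclear genome that reached 50 counts in each library, the median log2 TPM in replicate 3 was -0.36 relative to the mean of the gene. TPM was therefore rescaled to a common sum after the mitochondrial genes were left out, which brought that median to 0.00 (9.28e-05), and is called nuclear TPM here. In nuclear TPM, SLC7A11 had 47.7, 48.7 and 159 in replicates 1, 2 and 3. The highest replicate was 3.33 times the lowest, and between replicates 1 and 2 alone the ratio was 1.02. Its SD on the log2 scale was 0.99, above 99.4% of these genes, where the median was 0.20.

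The other abundant transporters were highest in the same replicate on nuclear TPM, and SLC38A1 was not on TPM as deposited. SLC38A2 had 242, 246 and 388 nuclear TPM, a ratio of 1.60 between highest and lowest. SLC7A1 had 142, 138 and 211, a ratio of 1.54, and SLC38A1 had 52.9, 53.6 and 77.7, a ratio of 1.47. For all 4 genes replicates 1 and 2 differed by at most 1.03-fold. A highest value in replicate 3 was found for 4 of these 4 genes, beside 42.0% of the 5656 genes. By counts scaled with TMM it was again 4 of 4, beside 31.3%, and by DESeq2 size factors 4 of 4, beside 1695 of the 5656 genes. On TPM as deposited it was 3 of 4, beside 8.68%, with SLC38A1 highest in replicate 2.

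Of the ATF4 axis, 14 genes had at least 50 counts in every library. Of these, 10 were highest in replicate 3 on nuclear TPM, beside 42.0% of the 5656 genes. On TPM as deposited 8 were, beside 8.68%. NUPR1, a stress-induced nuclear protein, had 6.76, 13.0 and 51.2 nuclear TPM, and CHAC1 had 120, 228 and 536. ASNS, which makes asparagine, had 23.8, 22.6 and 71.5 nuclear TPM, and PSAT1 had 1606, 1730 and 3953. These and VLDLR, STC2, CEBPB and PHGDH were the 8 genes of the axis whose highest replicate was at least 2 times the lowest, against 7.09% of the 5656 genes, and in all 8 the highest was replicate 3. Over all 5656 genes, 259 of the 401 with such a range were highest in replicate 3. Between replicates 1 and 2 alone none of the 14 differed by 2-fold, beside 0.866% of the 5656 genes, with NUPR1 at 1.93 and CHAC1 at 1.91. The genes of the axis that were not highest in replicate 3 were EIF2AK4, EIF2AK1, EIF2S1 and ATF5, the first 3 of which encode eIF2 kinases and the alpha subunit of eIF2. NUPR1, ASNS, VLDLR, CEBPB, PHGDH, EIF2AK4, EIF2AK1, EIF2S1 and ATF5 were chosen for mention after their values were seen. Among the further transporters, SLC6A9 had 12.4, 11.0 and 36.3 nuclear TPM, a ratio of 3.29, while SLC16A10 had 57.6, 57.8 and 57.2. Replicate 3 was also the deepest library in total counts. Mitochondrial reads made up 25.8% of that total, against 9.59% in replicate 1 and 5.70% in replicate 2, so the 2 traits are not separate. What part either had in these values was not tested.

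**Figure D4:**
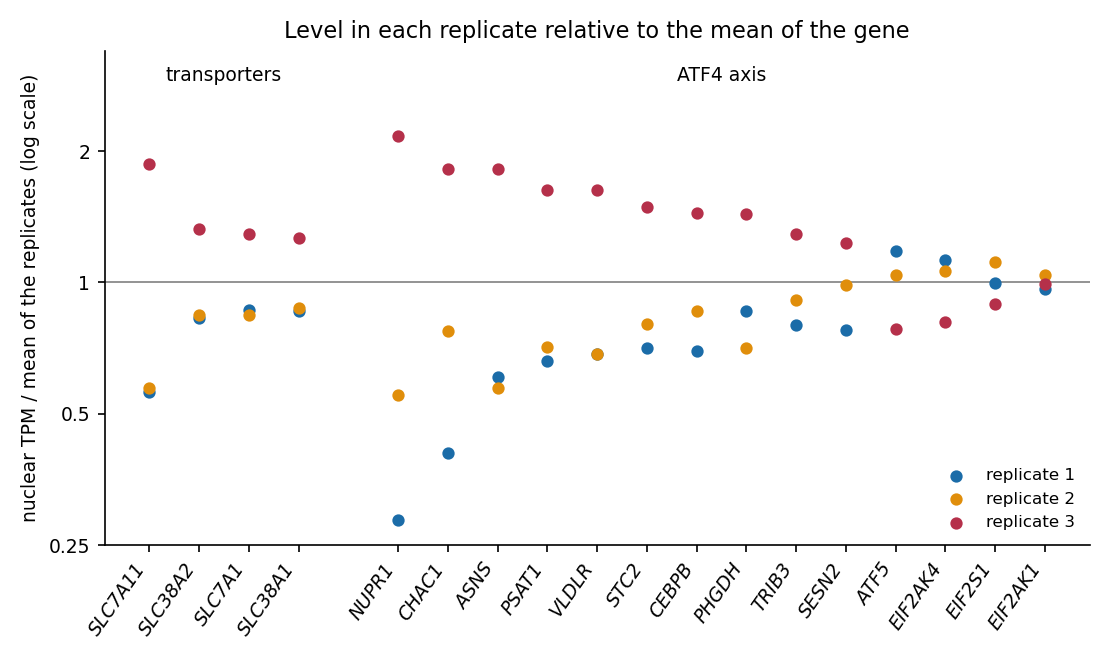
Nuclear TPM in each replicate divided by the mean of the gene over the 3 replicates (vertical axis, logarithmic), for the 4 transporters and the 14 ATF4 axis genes with at least 50 counts in every library. Replicate 3 (red) is the top point for all 4 transporters and for 10 of the 14 axis genes, and on TPM as deposited for 3 and 8 of them.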

How the data were processed

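RNA-seq was performed on 3 HEK293T replicates of 1 condition. Per the labels, reads were handled with Trimmomatic 0.38.0, HISAT2 2.2.1 and featureCounts on hg38, and the settings for reads on several transcripts are not given in the sources used here. The authors deposited 1 table per replicate with 247541 transcripts. The counts deposited for each transcript are raw and whole. The deposited TPM is that count divided by the deposited transcript length and scaled to 1000000 per library, so long transcripts are lowered although each 3′ read comes from an end. At most 0.166% of counts lay on transcripts that were not matched to GENCODE v44 on GRCh38, and 223558 transcripts matched.

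TPM and counts were summed per gene, and SDs are over replicates (n = 3). Library totals of 6262175 to 8521624 counts limit the precision of the low genes. Categories followed the quartiles of genes with a mean of at least 1 TPM. Motifs were searched on both strands of RefSeq promoter windows, runs of C or G on the strand of the gene. No test was made, since there is 1 condition. The members and gene lists were chosen with earlier results of these data known. All members were named, and of each other list the 4 genes of highest mean TPM, up to 2 with 0 counts, and ATF4, SLC7A8, SLC7A7, SLC43A1, SLC38A5 and SLC6A9, as well as genes that overlap a member or share words of 31 bases with its 3′ end and have at least 10 counts. For SLC1A5 only the gene sharing most words was named, and a few genes that this rule selects are not reported here. Alternatives were other thresholds, scalings, pseudocounts, motifs, and each replicate left out. The scripts were tested on simulated data. Python 3.11.15, numpy 2.4.6, pandas 2.3.3, edgeR 4.0.16 (TMM factors only) and DESeq2 1.42.0 (size factors only) were used.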

Additional observations from a re-analysis of the deposited data

How the results depend on the processing

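Of 162 values under an alternative, 140 stayed within the spread between replicates or, for counts and the median spread, within 1.5 times. When the threshold was 10 TPM, 4 transporters were expressed, 2 were in the high category, and 3 of the further transporters, 2 of the lysosomal ones and 13 of the sensing genes were expressed. With a mean above 0, the further transporters came to 17 and the lysosomal ones to 8. Without division by length, 2 pairs of neighbours did not overlap and SLC3A2 over its light chains was 0.00399, and with the leading transcript alone that ratio was 0.0128. The median spread of the transporters, 0.11, was 0.36 with log2(TPM + 0.1), 0.33 with mitochondrial genes left out, 0.24 with TMM and 0.32 with DESeq2 size factors. Mitochondrial genes left out raised 6 of the mean TPM values by more than their SD, and SLC3A2 had 0.585 TPM on its leading transcript. TTGCATCA was found for 2 genes. With each replicate left out in turn, 7 transporters were expressed and 4 were high every time. The comparison by replicate and its scalings were chosen after seeing the data. No paired analysis was possible because a single condition leaves no groups for the replicate numbers to pair. Depth limits the 6 transporters with few reads.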

Other observations

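The genes that act on imported amino acids were read in the same libraries. Of 8 lysosomal amino acid transporters 4 were expressed, beside 38.2% of protein-coding genes. SLC36A1, a proton-coupled exporter of small amino acids, had 31.2, 29.9 and 16.8 TPM, and SLC36A4 had 20.7, 21.4 and 8.59 TPM. CTNS, the cystine exporter of the lysosome, had 5.76, 6.50 and 5.04 TPM, and the arginine sensor SLC38A9 had 2.29, 5.46 and 3.48 TPM. Of 8 genes of glutamine and glutathione use 5 were expressed, beside the same 38.2%. GLUD1, which turns glutamate into ketoglutarate, had 255, 298 and 195 TPM, and GSR, which reduces glutathione, had 227, 262 and 144 TPM. GCLM, a subunit of the first enzyme of glutathione synthesis, had 31.9, 29.5 and 18.0 TPM. On nuclear TPM the ratio of highest to lowest replicate was 1.06 for GLUD1, 1.20 for GSR and 1.28 for GCLM, and none of these 3 was highest in replicate 3.

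Of 33 genes of the amino acid branch of mTORC1 signalling 21 were expressed and 10 were in the high category. Over all protein-coding genes these shares were 38.2% and 12.5%. The GTPase RRAGA had 617, 636 and 404 TPM, RHEB, the activator of mTORC1, 228, 240 and 121 TPM, and LARS1, the leucyl-tRNA synthetase, 117, 125 and 127 TPM. CASTOR1 and NPRL2 had 0 counts, and both have a 3′ end shared throughout. Of the 15 genes of this list with at least 50 counts in every library, 3 were highest in replicate 3 on nuclear TPM, beside 42.0% of all such genes.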
